A study of Mus musculus with 6 samples.

Results

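The methylated regions described here are the peaks of captured DNA that the authors listed for induced neurons at 7 dpi and for primary hippocampal neurons. Each position was counted once, which gave 14091 peaks at 7 dpi and 6636 in primary neurons, 20727 of the 30143 peaks of all 6 libraries. A peak was called shared when it overlapped a peak of the other list by at least 1 bp. By this rule 1187 peaks of 7 dpi and 1186 peaks of primary neurons were shared, in 1194 overlapping pairs. The other 12904 peaks were listed at 7 dpi only and 5450 in primary neurons only.

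DNA was enriched with an antibody against methylated cytosine and sequenced (MeDIP-seq), so a peak marks a stretch with more captured fragments than its background. The 7 dpi cells were neurons induced from embryonic fibroblasts (MEF) taken at E13.5. The primary neurons came from the hippocampus of pups 1 day old, and were the study's positive control, while MEF were its negative control. All mice were of the ICR strain. What dpi stands for is not written in the labels, so the term is kept as their name of a time. Each group had 1 library, so no value below has a replicate check and no test between the conditions was possible. Intervals in brackets are exact Clopper-Pearson 95% intervals and cover counting error only.

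In mammals, DNA methylation lies mostly on cytosines followed by guanine (CG), and CG-dense promoters are as a rule free of it. Known exceptions are promoters of germline genes, which are methylated in somatic cells, and imprinted genes, where the copy from 1 parent is methylated. Neurons are also known for methylation outside CG, which builds up in the brain after birth. The antibody captures DNA that holds several methylated cytosines, so dense CG that is methylated is captured best.

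Sequences at the starts of 8 genes are shown because the peaks that the results turn on lie over or beside them. Each line holds the 250 bases before the gene's start, 5′ to 3′ on the gene's strand, from RefSeq for GRCm38.p6, with every CG in capitals. The promoters of Vmn2r29 (chr7:7278290-7278539, minus strand), Gm7550 (chr12:54391319-54391568, minus strand), Dazl (chr17:50293621-50293870, minus strand), Brdt (chr5:107330944-107331193, plus strand) and Nrxn3 (chr12:88794254-88794503, plus strand) carried a shared peak.
Vmn2r29: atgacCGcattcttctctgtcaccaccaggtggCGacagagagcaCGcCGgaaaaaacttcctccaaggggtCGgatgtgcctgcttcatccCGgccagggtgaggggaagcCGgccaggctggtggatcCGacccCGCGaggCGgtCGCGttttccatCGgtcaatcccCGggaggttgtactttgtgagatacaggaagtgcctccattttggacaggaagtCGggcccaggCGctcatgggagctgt
Gm7550: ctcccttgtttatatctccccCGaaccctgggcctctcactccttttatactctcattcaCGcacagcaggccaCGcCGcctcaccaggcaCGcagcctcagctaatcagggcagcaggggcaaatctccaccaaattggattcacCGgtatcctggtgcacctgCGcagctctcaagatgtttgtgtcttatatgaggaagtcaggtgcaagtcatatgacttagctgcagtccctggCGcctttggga
Dazl: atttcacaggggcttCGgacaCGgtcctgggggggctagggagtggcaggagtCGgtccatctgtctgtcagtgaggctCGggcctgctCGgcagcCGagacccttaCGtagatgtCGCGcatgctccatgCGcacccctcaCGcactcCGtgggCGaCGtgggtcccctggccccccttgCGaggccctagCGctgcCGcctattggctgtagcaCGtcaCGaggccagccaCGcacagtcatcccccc
Brdt: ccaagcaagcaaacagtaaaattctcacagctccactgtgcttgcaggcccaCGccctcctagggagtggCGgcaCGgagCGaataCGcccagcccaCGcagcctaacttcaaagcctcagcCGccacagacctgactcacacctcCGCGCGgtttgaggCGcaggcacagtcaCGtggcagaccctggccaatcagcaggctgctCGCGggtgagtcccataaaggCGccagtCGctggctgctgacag
Nrxn3: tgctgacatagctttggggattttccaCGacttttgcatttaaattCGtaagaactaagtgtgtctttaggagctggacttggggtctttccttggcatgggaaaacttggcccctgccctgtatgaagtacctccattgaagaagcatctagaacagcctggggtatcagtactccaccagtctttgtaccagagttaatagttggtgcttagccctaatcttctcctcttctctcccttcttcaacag
The printed bases held 17 CG at Vmn2r29, 8 at Gm7550, 20 at Dazl and 16 at Brdt, and 2 at Nrxn3. At Nrxn3 the primary neuron peak (chr12:88794726-88795205) lay wholly downstream of the printed bases, and the 7 dpi peak began inside them, at 88794425. The 2 CG therefore do not describe the CG content under the shared peak.

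The promoters of Mcts2 (chr2:152686898-152687147, plus strand) and D1Pas1 (chr1:186967166-186967415, plus strand) carried a peak at 7 dpi only, and that of Sohlh2 (chr3:55181794-55182043, plus strand) in primary neurons only.
Mcts2: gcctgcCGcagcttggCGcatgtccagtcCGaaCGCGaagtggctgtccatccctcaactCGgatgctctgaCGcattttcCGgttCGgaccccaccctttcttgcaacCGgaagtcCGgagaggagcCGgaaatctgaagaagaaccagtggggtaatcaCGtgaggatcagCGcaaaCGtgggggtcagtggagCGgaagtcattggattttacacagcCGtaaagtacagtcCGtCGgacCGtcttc
D1Pas1: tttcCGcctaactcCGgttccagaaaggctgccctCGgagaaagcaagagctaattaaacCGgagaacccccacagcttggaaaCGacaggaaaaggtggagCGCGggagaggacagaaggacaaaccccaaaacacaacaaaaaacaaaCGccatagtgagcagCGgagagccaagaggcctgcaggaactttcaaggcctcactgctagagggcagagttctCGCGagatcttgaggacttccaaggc
Sohlh2: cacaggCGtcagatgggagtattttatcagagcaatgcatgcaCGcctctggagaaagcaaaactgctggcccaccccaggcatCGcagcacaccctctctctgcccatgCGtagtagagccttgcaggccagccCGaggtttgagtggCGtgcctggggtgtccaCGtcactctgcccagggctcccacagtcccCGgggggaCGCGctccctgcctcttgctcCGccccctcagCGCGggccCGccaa
These stretches held 20, 11 and 14 CG. With the next 50 bases they held 25, 15 and 17, above the median of 7 for such windows under peaks of either set of 1 library. At Gm6150, a promoter with a peak in primary neurons only that is not shown, that count was 5. The 3 stretches shown are therefore not typical of their sets. The Sohlh2 peak began inside the gene, and only 24 bp of the 300 bp window around its start lay under it.

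Few peaks of 7 dpi were found at the same place in primary neurons. The shared part was 8.42% of the 7 dpi peaks (7.97% to 8.89%) and 17.9% of the primary neuron peaks (17.0% to 18.8%). The lists differ in length, so the same shared positions make up different shares of each. Whole lists of other pairs of libraries were not compared here, so these shares are not read as particular to this pair. When each library was held to its 6636 strongest peaks by −log10 q-value, the authors' score of certainty, 15.8% of either list was shared. A peak missing from a list does not show that the DNA was unmethylated there, since a call depends on depth, and library totals were not analysed here. At the edge of the rule, the smallest overlap was 21 bp, at a pair assigned to Zfhx4 (7 dpi 3.86-fold, primary neurons 4.73-fold). The closest pair left out lay 1 bp apart, at Cacna1b (4.14-fold and 6.45-fold). Only 11 pairs overlapped by less than 100 bp, and 20 peaks of 7 dpi lay within that distance of a primary neuron peak without touching it.

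Sharing rose with the strength of the peak in both libraries. Of the weakest 10% of 7 dpi peaks 0.496% were shared, and of the strongest 10% 36.9% (34.4% to 39.5%). In primary neurons the same 2 ends gave 2.11% and 54.9% (51.0% to 58.7%). Of the peaks with a fold enrichment of at least 10, 251 of 460 at 7 dpi (54.6%) and 152 of 214 in primary neurons (71.0%) overlapped a peak of the other list. Length moved with it: the shortest length in either list was 480 bp, and 2.29% of the 7 dpi peaks of that length were shared against 31.3% of the longer ones. In primary neurons these shares were 6.03% and 39.1%. Strength and length bear on whether a peak is called and overlaps another, so they describe the split and are not independent of it.

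**Figure D1:**
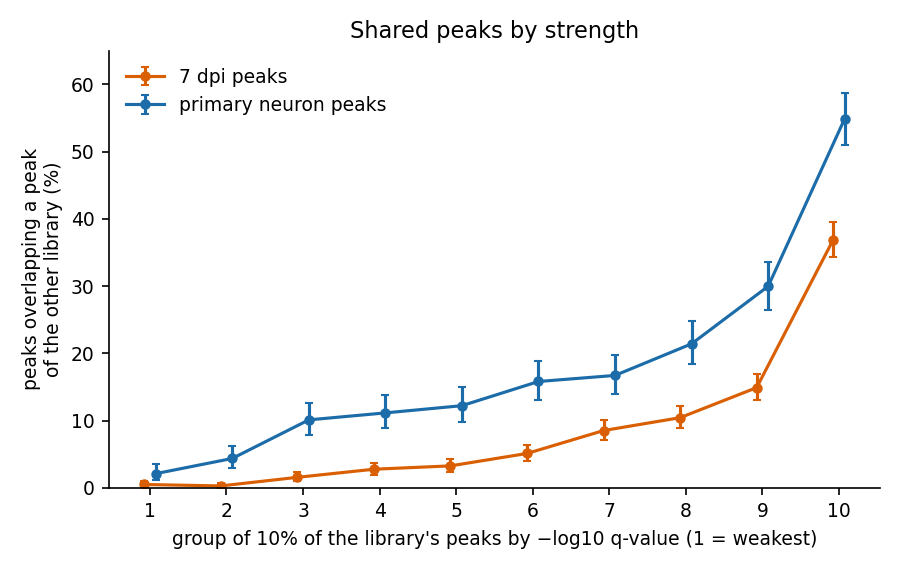
Share of peaks (%) that overlap a peak of the other library, for 10 equal groups of a library's peaks ordered by −log10 q-value from 1 (weakest) to 10 (strongest), with exact 95% intervals. The strongest 10% reach 36.9% in the 7 dpi list and 54.9% in the primary neuron list.

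Intergenic peaks were shared more often than those of the other classes. The authors gave each peak 1 of 3 classes, with promoter peaks at most 2 kb from the nearest transcription start site (TSS). At 7 dpi 24 of 461 promoter peaks were shared (5.21%, 3.36% to 7.65%), 251 of 3639 gene body peaks (6.90%, 6.10% to 7.77%) and 912 of 9991 intergenic peaks (9.13%, 8.57% to 9.71%). In primary neurons the shares were 14.5% of 165, 15.8% of 1594 and 18.7% of 4877 peaks. The promoter intervals are wide because few peaks stand behind them, and in primary neurons the interval of 9.55% to 20.9% covers the other classes' values. At 7 dpi the intervals of promoter and gene body peaks overlap. Their order turns among peaks with a −log10 q of at least 20, where 10 of 68 promoter peaks (14.7%) and 90 of 699 gene body peaks (12.9%) of 7 dpi were shared. Seen from the sets, 2.02% of the shared peaks (7 dpi list) were at promoters, 21.1% in gene bodies and 76.8% intergenic. For the peaks of 7 dpi only these shares were 3.39%, 26.3% and 70.4%, and for those of primary neurons only 2.59%, 24.6% and 72.8%. All 3 sets therefore lay mostly between genes.

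Shared peaks were longer and taller than peaks of 1 library. Their median length was 587 bp as called at 7 dpi and 569 bp as called in primary neurons, against 480 bp in either set of 1 library. The 480 bp minimum made up 21.4% of shared peaks at 7 dpi, but 84.1% of the 7 dpi only peaks and 73.5% of the primary neuron only peaks. At the summit, the median was 43 tags (quartiles 36 and 56.5) for shared peaks at 7 dpi and 29 tags (25 and 36) for 7 dpi only. In primary neurons it was 45 tags (38 and 58) for shared peaks and 35 (30 and 41) for primary neuron only. Medians of the authors' fold enrichment were 7.57 against 5.46 at 7 dpi and 6.77 against 5.65 in primary neurons. Classes hardly differed within a set: shared promoter peaks at 7 dpi had a median of 47.5 tags, gene body peaks 42 and intergenic peaks 43. The shared peaks covered 0.798 Mb at 7 dpi, the 7 dpi only peaks 6.48 Mb and the primary neuron only peaks 2.81 Mb.

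The peaks of an overlapping pair lay at nearly the same place. Pairs were defined by overlap, so near summits, a common class and a common assigned gene follow largely from that rule. These values describe the pairs and are not read as a finding about the libraries. The rule asked for 1 bp only, so it did not fix how much of a peak was covered. The summits of a pair lay a median of 87.5 bp apart, and the overlap covered a median of 96.1% of the shorter peak. Of the 1194 pairs, 1190 had the same class and 1191 the same assigned gene. The fold enrichment was higher at 7 dpi in 780 pairs and higher in primary neurons in 414, with a median log2 ratio of 7 dpi to primary neurons of 0.17 (quartiles -0.12 and 0.49). That shift was seen in gene bodies (median 0.22) and between genes (0.15) but was 0.01 over the 25 promoter pairs, 13 of which were higher at 7 dpi. The folds were called in each library on its own, so the offset between libraries is not read as a change in methylation.

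**Figure D2:**
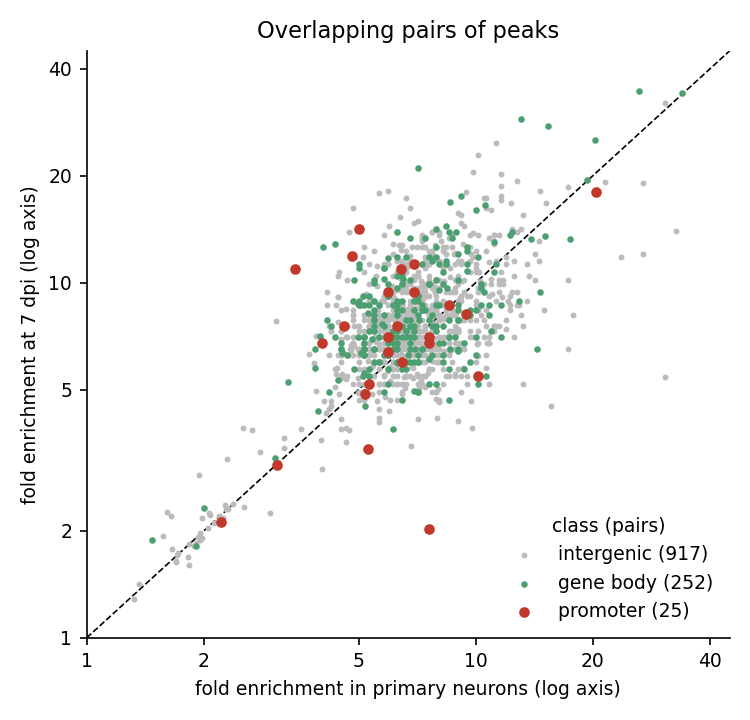
Fold enrichment of the authors' peak calls at 7 dpi against primary neurons for the 1194 overlapping pairs, on log axes, with the dashed line marking equal values. Promoter pairs are in red, gene body pairs in green and intergenic pairs in grey, and 780 pairs lie above the line. The group of low folds near 2 includes positions of very high tag counts.

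The promoter peaks found in both neuronal libraries were led by Vmn2r29, a vomeronasal receptor gene. Its peak (chr7:7277387-7278525) was listed in all 6 libraries, with a fold of 20.4 in primary neurons, of 19.9, 12, 28.7 and 18 at 1, 3, 5 and 7 dpi and of 7.26 in MEF. Each fold comes from that library's own peak call. Pik3r4, a regulatory subunit of the class III PI 3-kinase, followed with folds of 8.63 (7 dpi) and 8.55 (primary neurons), and had peaks at 1 and 5 dpi but none in MEF or at 3 dpi. Gm7550 had the same pattern of libraries, at 8.17-fold and 9.46-fold. Of the 24 shared promoter peaks of 7 dpi, 7 overlapped a MEF peak and 18 a 5 dpi peak.

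A few shared promoter peaks were listed in these 2 neuronal libraries and in no other. Among the 12 strongest they were Syna (7 dpi 7.05-fold, primary neurons 7.58-fold), BC002163 (7.57-fold and 6.29-fold), Gm13238 (5.99-fold and 6.45-fold) and Nrxn3 (7.05-fold and 5.97-fold). Syna encodes syncytin A, which fuses cells of the mouse placenta, and Nrxn3 encodes a neurexin, an adhesion protein of the presynaptic side. Further down the order, Cxcl1, a chemokine gene, had 6.39-fold and 5.94-fold, and Nnat, an imprinted gene expressed from the father's copy, 7.57-fold and 4.59-fold. At Nrxn3 the 7 dpi peak (chr12:88794425-88795033) reached 36 tags and the primary neuron peak also 36. Its summit lay 237 bp and 547 bp downstream of the TSS. The plot of shared promoters shows these genes as the ones with crosses in every other library. The lists of 7 dpi and primary neurons were the longest, with 14091 and 6636 peaks against at most 3918 in any other. Being listed only there is therefore not read as particular to neurons.

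**Figure D3:**
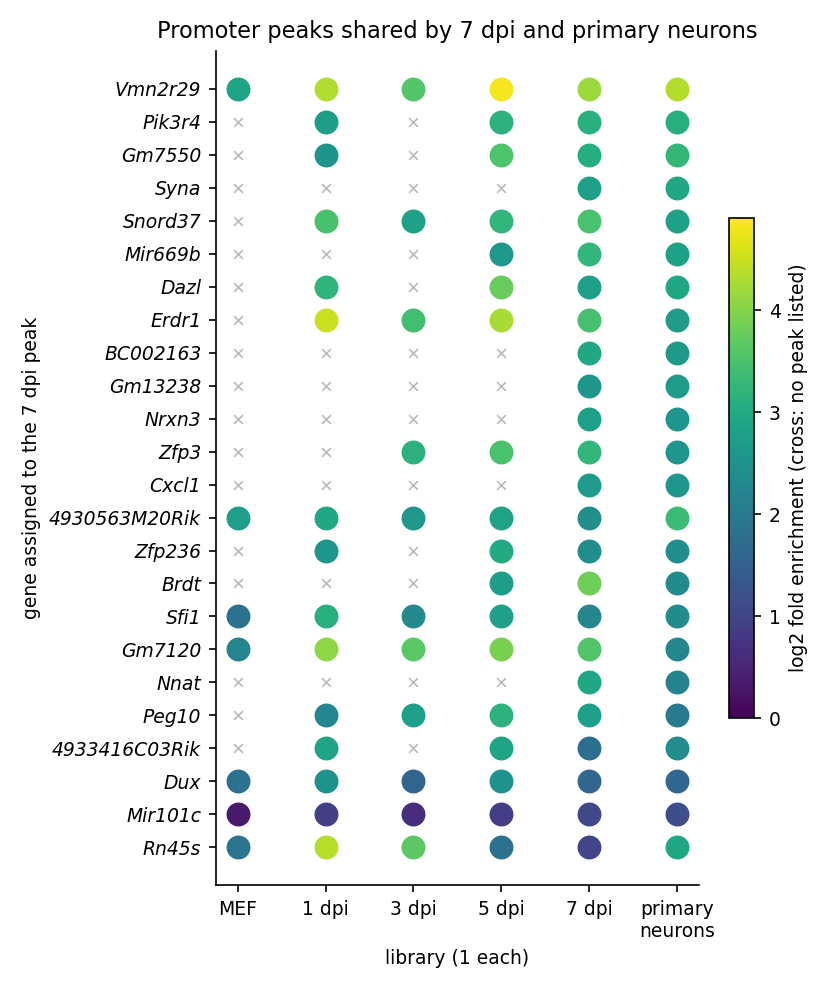
Log2 fold enrichment (colour) of the 24 shared promoter peaks in each of the 6 libraries, ordered by the smaller of the 7 dpi and primary neuron folds, with a cross where no peak was listed. Rows such as Vmn2r29 are filled in all 6 libraries, while Syna, BC002163, Gm13238, Nrxn3, Cxcl1 and Nnat are filled at 7 dpi and in primary neurons only. For Rn45s the primary neuron value is of a peak classed as gene body.

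Germline genes were among the shared promoters. Dazl, a gene for an RNA-binding protein of germ cells, had 6.78-fold at 7 dpi with 35 tags and 7.58-fold in primary neurons with 46 tags, and its folds at 1 and 5 dpi were 9.18 and 13.6. No Dazl promoter peak was listed in MEF or at 3 dpi. Brdt, which encodes a testis protein that binds acetylated histones, had 14.2-fold at 7 dpi with 74 tags, 5.00-fold in primary neurons with 30 tags and 6.56-fold at 5 dpi. Library totals were not analysed here, so the tags of different libraries are not compared. The Brdt peak covered the whole of the 300 bp window around its TSS, from which the printed bases come.

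A list of 58 germline genes had promoter peaks more often than genes at large in either library. This list and the gene lists below were chosen with earlier results of these data known. Their shares therefore describe the lists and do not support a trait of such genes. At 7 dpi 8 of the 58 had one (13.8%), beside 1.73% of the 26220 genes with a curated transcript. In primary neurons 5 had one (8.62%), beside 0.622% of all genes. Dazl and Brdt had it at a shared position, beside 0.0877% of all genes. At 7 dpi only, Asz1 and Tdrd1 of the piRNA pathway had 7.57-fold and 7.31-fold, Fkbp6, needed for meiosis in mouse males, 5.20-fold, Sycp1, a protein of the synaptonemal complex, 7.31-fold, and the X-linked meiosis gene Tex11 7.05-fold. D1Pas1, a testis RNA helicase gene, had 2 peaks there, at 9.42-fold and 8.10-fold. In primary neurons only, Sohlh2, a transcription factor of germ cell development, and Tex12, of the synaptonemal complex, each had 6.94-fold. Most of these promoters had a peak in other libraries of the conversion as well. Fkbp6 had 8.12-fold, 11.4-fold and 10.6-fold at 1, 3 and 5 dpi, each above its 7 dpi fold. The D1Pas1 peak nearer to its TSS had 9.53-fold and 7.398-fold at 1 and 5 dpi, Sycp1 6.002-fold and 9.75-fold at the same times, and Tex11 6.39-fold at 5 dpi. Sohlh2 had 6.39-fold at 5 dpi, and Tex12 7.24-fold and 6.89-fold at 1 and 5 dpi. The promoter peak of Asz1 and the 7 dpi promoter peak of Tdrd1 were listed in no other library. Tdrd1 had a promoter peak in both neuronal libraries but at different positions. Its primary neuron promoter peak (8.87-fold) lay 1202 bp upstream of a TSS and its 7 dpi promoter peak 935 bp downstream of one. Outside the promoter class, 1 of the 3 peaks of 7 dpi assigned to Tdrd1 was shared.

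Imprinted genes, from a list chosen in the same way, also had promoter peaks at a share above that of all genes. Of 50 listed, 5 had one at 7 dpi, beside 1.73% of all genes, and 4 in primary neurons, beside 0.622%. Nnat was shared. So was a pair of overlapping peaks at the starts of Peg10, a retrotransposon-derived gene, and its neighbour Sgce. The authors assigned the 7 dpi peak to Peg10 (6.78-fold, summit 371 bp downstream of its TSS). They assigned the primary neuron peak to Sgce (4.03-fold, summit 234 bp downstream of its TSS). The 7 dpi peak also overlapped peaks at 1, 3 and 5 dpi (4.77-fold, 6.79-fold and 8.91-fold). At 7 dpi only, Mcts2 (9.68-fold), Kcnq1ot1 (7.57-fold), the noncoding RNA of an imprinted domain, and Commd1 (4.14-fold) had a peak. In primary neurons only, Nap1l5 had 6.61-fold and Gnas, the gene of a G protein subunit, 5.81-fold. The Kcnq1ot1 peak also overlapped a MEF peak of 6.65-fold, and none at 1, 3 or 5 dpi.

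Few genes of the neuronal lists had promoter peaks, at shares near those of all genes in numbers this small. Of 49 neuronal fate transcription factors only Prox1, at 7 dpi, had one (4.14-fold), and of 53 synapse and structure genes Map2 at 7 dpi (4.41-fold) and Nrxn3 in both. Of 60 channel and receptor genes, Grm3 (5.73-fold) and Kcna1 (3.63-fold), a glutamate receptor and a potassium channel, had one at 7 dpi and Kcnip4 (4.19-fold) in primary neurons. At 7 dpi these are 2.04%, 3.77% and 3.33% of the lists, beside 1.73% of all genes. In primary neurons they are 0%, 1.89% and 1.67%, beside 0.622%. Each count rests on at most 2 genes, and nothing particular to the lists is read from it. No gene of the 19 for DNA methylation enzymes and readers and none of 24 glial genes had a promoter peak. Of 50 fibroblast genes, Dcn and Fbln1 at 7 dpi and Dcn and Itgb1 in primary neurons had one, at folds of 3.88 to 5.46. The 2 Dcn peaks did not overlap.

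Counted over any peak assigned to the gene, the neuronal lists looked different from the promoter counts. Of the channel and receptor genes 43 had a peak at 7 dpi (71.7%) and 34 in primary neurons (56.7%), beside 29.2% and 16.8% of all genes. Of the synapse and structure genes it was 37 (69.8%) and 24 (45.3%), and of the fate factors 26 (53.1%) and 11 (22.4%). Peaks between genes were assigned to a gene by the authors, so long genes and genes in sparse regions can collect many. A shared position was found for 4 channel genes, 8 synapse genes and 2 fate factors, which is 6.67%, 15.1% and 4.08% beside 3.85% of all genes. Fibroblast genes had counts of 27 and 18 of 50 (54.0% and 36.0%), with 5 at a shared position.

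Among single genes with many peaks, the shared part ranged from none to all. Cntnap2, a neurexin-family adhesion gene 2241 kb long, had 14 peaks at 7 dpi and 3 in primary neurons, and none was shared. Nlgn1, a postsynaptic adhesion protein gene, had 10 and 4 with 1 shared, and Kcnd2, a potassium channel gene, 10 and 4 with 1 shared. Pou3f2, a transcription factor (Brn2) used to induce neurons from fibroblasts, had 7 peaks at 7 dpi and 8 in primary neurons, 3 of them shared, and Celf4, an RNA-binding protein gene of neurons, had 13 and 5 with 3 shared. Atoh1, a transcription factor of some neuron types, had 8 and 7 with 5 shared, and G530011O06Rik 11 and 8 with 8 shared. The labels used here do not say which factors induced the neurons. Of the neuron markers, Map2 had 3 and 0 peaks, Rbfox3 3 and 2, Syn1 1 and 0 and Tubb3 0 and 1. Peaks of DNA at such genes do not show which cells were present, and no RNA was measured in these libraries.

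By gene, the lists overlapped more than by position when any peak counted, and little more when only promoter peaks did. A shared position nearly always counts by gene as well, and a gene with many peaks can enter both lists without one. At least 1 peak was assigned to 7678 genes at 7 dpi and to 4427 in primary neurons, with 2930 in both, 38.2% and 66.2% of each list. Of all genes, 16.8% had a peak in primary neurons and 29.2% at 7 dpi. Of those 2930, 1915 had no shared position. For promoter peaks the lists held 456 and 164 genes, with 27 in both (5.92% and 16.5%). By position 5.21% and 14.5% of the promoter peaks were shared. Of all genes, 0.622% had a promoter peak in primary neurons and 1.73% at 7 dpi. In 5 of the 27, 9330117O12Rik, Dcn, Lig1, Tdrd1 and Ttll1, the promoter peaks lay at different positions.

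Gene families differed in how many members carried a peak. Of 1126 olfactory receptor genes 12.5% had any peak at 7 dpi and 7.99% in primary neurons, below the 29.2% and 16.8% of all genes, and none had a shared promoter peak. Vomeronasal receptor genes had peaks in 83 and 73 of 360 members (23.1% and 20.3%). Of 39 HOX genes, which pattern the body axis, 5 had a peak at 7 dpi and none in primary neurons. Of 23 cadherin genes (symbols Cdh), cell adhesion genes, 19 had a peak at 7 dpi and 17 in primary neurons, with 7 at a shared position. The clustered protocadherins, which give neurons their surface identity, had 10 and 4 of 58. Zfp zinc finger genes, at 31.3% and 19.11% of 403, were near the share of all genes.

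Shared promoter peaks lay close to the TSS more often than those of 1 library. The summit was within 500 bp of the TSS in 15 of 24 shared peaks at 7 dpi (62.5%, 40.6% to 81.2%), in 79 of 437 peaks of 7 dpi only (18.1%, 14.6% to 22.0%) and in 32 of 141 of primary neurons only (22.7%, 16.1% to 30.5%). By contrast 56.5% of the 7 dpi only and 51.1% of the primary neuron only promoter peaks had their summit over 1 kb away. The median CG content was higher too, over few windows. RefSeq promoter windows, 250 bases before to 50 after a start, that lay at least in part under a shared peak held a median of 14.5 CG (20 windows). Those under peaks of 7 dpi only (105 windows) or primary neurons only (43 windows) held 7, as did all 32851 windows. Of the 24 genes with a shared promoter peak at 7 dpi 14 were protein-coding (58.3%, 36.6% to 77.9%), and 2 were not found in the reference. Of those with a promoter peak at 7 dpi only, 371 of 433 genes were protein-coding (85.7%), and of primary neurons only 113 of 141 (80.1%).

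**Figure D4:**
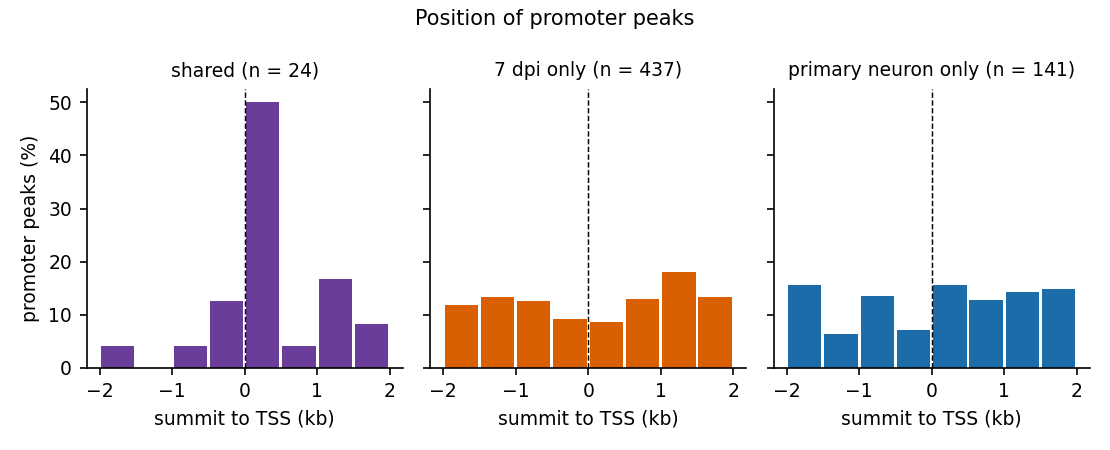
Share of promoter peaks (%) by distance of the summit from the TSS in bins of 500 bp (negative is upstream), for the 24 shared peaks as called at 7 dpi, the 437 of 7 dpi only and the 141 of primary neurons only. In the shared set 12 of the 24 peaks fall in the first bin downstream of the TSS, and the other sets are spread over the whole range.

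Peaks outside promoters that were strongest in both libraries were also present in the other 4. In gene bodies these were Erdr1 (7 dpi 34.3-fold, primary neurons 33.9-fold), Secisbp2l (34.7-fold and 26.3-fold), Ncoa2, a nuclear receptor coactivator gene (25.2-fold and 20.3-fold), the receptor phosphatase gene Ptprs (19.4-fold and 19.4-fold) and Pigf, of GPI anchor synthesis (27.6-fold and 15.3-fold). Erdr1 collected 33 peaks at 7 dpi and 14 in primary neurons, and 13 of the 33 were shared. Between genes the strongest were assigned to G530011O06Rik (32.0-fold and 30.7-fold), G630090E17Rik (19.2-fold and 21.5-fold), Dtnbp1 (19.15-fold and 26.9-fold), 4930401O10Rik (18.7-fold and 17.3-fold) and Cabyr (16.8-fold and 15.2-fold). At all 10 positions MEF, 1, 3 and 5 dpi had a peak as well.

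The tallest shared peaks by tags had low folds. All 29 peaks of 7 dpi with over 1000 tags were shared, and so were 28 of the 31 in primary neurons. The highest, assigned to Lrrc4c (chr2:98666511-98667578), had 1468093 tags at 7 dpi and 1744275 in primary neurons but folds of 1.98 and 1.96, and was listed in all 6 libraries with at least 1030196 tags. A cluster of positions near the start of chromosome 9, assigned to Mir101c, gave 15 peaks in either library, all shared. Rn45s, the precursor of ribosomal RNA, had a promoter peak of 2.03-fold with 258 tags at 7 dpi. It overlapped a primary neuron peak 6326 bp long that the authors classed as gene body, of 7.61-fold with 866 tags. Ribosomal RNA genes exist in many copies, so reads placed there cannot be given to 1 locus with certainty. Leaving out positions over 1000 tags moved none of the shares or medians of the sets beyond its interval.

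Peaks at 7 dpi only were led, at promoters, by Prickle2, a planar cell polarity gene (11-fold, 57 tags), and Prpf18, a splicing factor gene (10.7-fold, 56 tags). Prpf18 also had peaks at 1, 3 and 5 dpi (7.59-fold, 6.603-fold and 9.42-fold) and Kcnv2, a modifier subunit of potassium channels (10.2-fold), at 1 and 5 dpi. Mcts2 (9.68-fold) had one at 5 dpi (7.73-fold). Of the 10 strongest, 7 (Prickle2, 4930448I06Rik, Slc25a21, Gm5434, Apoa4, Osbpl1a and Polr1a) were listed in no other library, with folds of 9.68 to 11. In gene bodies the strongest was in Map2k5, a kinase gene of the ERK5 pathway (19.97-fold), where MEF had 12.4-fold, and 1 and 5 dpi 13.2-fold and 17.0-fold. Zfp473 (17.1-fold), Nmt1 (16.0-fold) and Pacs1 (14.96-fold) followed, all with peaks in other libraries. Between genes, peaks assigned to Gm3833 (17.6-fold), Mir3102 (16.5-fold), Klhl9 (16.0-fold) and A730082K24Rik (15.7-fold) led, and of these Mir3102 was listed at 7 dpi alone.

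Peaks in primary neurons only were led, at promoters, by Vmn2r82, another vomeronasal receptor gene (13.2-fold, 81 tags), which had peaks at 1, 3 and 5 dpi of 6.36-fold to 8.25-fold. Msantd4 (11.6-fold), 4930444A02Rik (9.84-fold), the α-globin gene Hba-a1 (9.03-fold) and Gtpbp6 (8.87-fold) had a peak in no other library. Zfp768, Kpna1, Pcdha7, Tdrd1 and Dhx16, at folds of at least 8.72, were each listed in at least 1 other. Kpna1, an importin gene, had peaks in MEF (3.96-fold), at 1 dpi (13.3-fold) and at 3 dpi (9.36-fold). In gene bodies the strongest were Zfp629 (13.1-fold), the adaptor gene Grb2 (12.4-fold), Tmem50a (11.9-fold) and Lrp1b (11.1-fold). Zfp629 was listed in every library but 7 dpi, and its nearest 7 dpi peak lay 237 bp away. Between genes, the peak assigned to Myom2, a muscle sarcomere gene, was the strongest (chr8:15519466-15520353, 30.5-fold, 188 tags), with a fold of 13.7 in MEF and of 42.9, 35.6 and 17.7 at 1, 3 and 5 dpi. The nearest 7 dpi peak to it was 53053 bp away. Peaks assigned to Nit1 (14.5-fold), Llgl1 (14.2-fold) and Olfr1361 (13.7-fold) followed.

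Shared peaks overlapped peaks of the libraries outside the split more often than the rest did. A peak called in 2 lists is more apt to be called in a further one, and 1 input library served all lists. The order was therefore likely beforehand, and the shares are given as a description. Of the shared peaks at 7 dpi 21.8% overlapped a MEF peak (19.5% to 24.3%), 53.8% a 1 dpi peak, 46.8% a 3 dpi peak and 78.0% a 5 dpi peak (75.5% to 80.3%). For peaks of 7 dpi only the shares were 1.01%, 2.72%, 1.98% and 5.90%, and for those of primary neurons only 1.78%, 5.38%, 4.42% and 10.97%. In all 4 libraries the shared set was highest, and the primary neuron only set lay above the 7 dpi only set. In all, 7.08% of the 7 dpi only peaks (6.64% to 7.53%) had a counterpart in at least 1 of the 4 libraries, against 13.2% of the primary neuron only peaks (12.3% to 14.1%) and 81.0% of the shared ones. The 4 libraries had 1447 to 3918 peaks each, fewer than either neuronal list, and the 5 dpi list, with the most overlaps, was the longest.

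**Figure D5:**
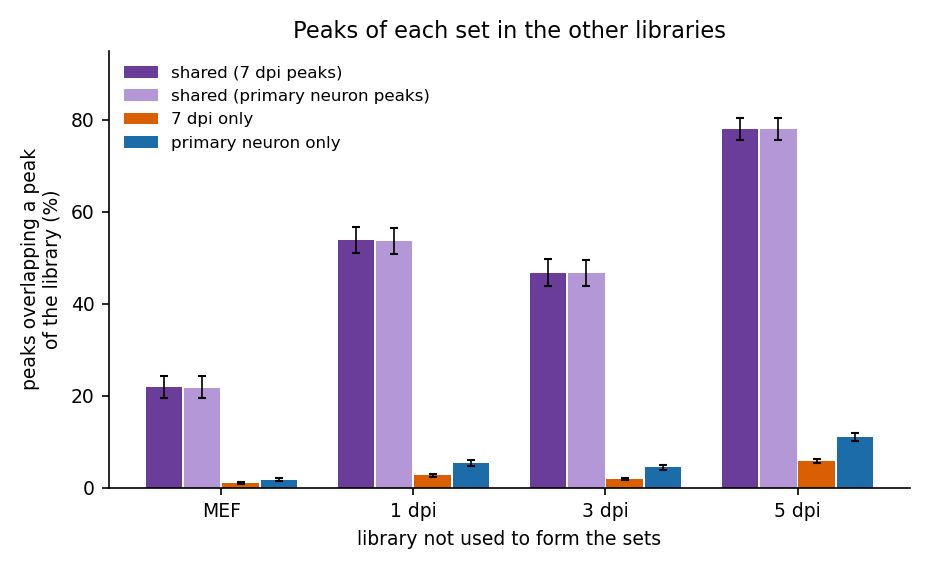
Share of peaks (%) of each set that overlap a peak of MEF, 1 dpi, 3 dpi or 5 dpi, with exact 95% intervals. Purple bars are the shared peaks as called at 7 dpi and in primary neurons, orange 7 dpi only and blue primary neuron only, and the shared peaks reach 78.0% at 5 dpi.

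Within bands of the fold given in its own list, the shared set again overlapped most, and the same limit holds there. At a fold of 5 to below 7, 69.2% of shared peaks at 7 dpi overlapped a 5 dpi peak, against 4.77% of the 7 dpi only and 10.3% of the primary neuron only peaks. At a fold of at least 10 the shares were 94.8%, 43.1% and 51.6%. These last values rest on 251 shared, 209 7 dpi only and 62 primary neuron only peaks, with intervals of 91.3% to 97.2%, 36.3% to 50.1% and 38.6% to 64.5%. With MEF, the strong peaks overlapped in 36.7%, 7.66% (4.44% to 12.1%) and 14.5% (6.86% to 25.8%). Among the strong peaks the intervals of the 2 sets of 1 library overlap, so their order is not settled there. In either of these sets the strong peaks recurred at 5 dpi more often than those of the lower band, and less often than shared peaks.

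The authors' tables of promoter regions, each neuronal library against MEF, cover reads at places without a called peak. Both comparisons use the same MEF library, so they are given side by side. The sets were split by peaks called from the same libraries' reads, so a set's regions were bound to be listed more often for the library that has its peaks. The shares are given as a description, and nothing is read from them. By gene, a unit of another kind, the authors' deposited tables listed 12.4% of all genes as higher than MEF at 7 dpi and 20.4% in primary neurons, and 8.87% and 15.3% as lower. Of the 437 promoter peaks of 7 dpi only, 394 (90.2%) overlapped a region listed as higher at 7 dpi, 48 (10.98%) one higher in primary neurons and 33 (7.55%) one lower in primary neurons. Of the 141 of primary neurons only, 125 (88.7%) overlapped a region higher in primary neurons, 12 (8.51%) one higher at 7 dpi and 16 (11.3%) one lower at 7 dpi. Of the 24 shared peaks at 7 dpi, 15 met a region higher at 7 dpi and 17 one higher in primary neurons.

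Some single promoters showed reads where the other library had no peak. At the Sohlh2 peak of primary neurons the authors' deposited table gave 41.54 scaled reads in primary neurons against 2.07 in MEF. The 7 dpi table listed the same promoter as well, with 11.55 against 0 in MEF. At Nap1l5 the values were 38.64 against 1.04 in primary neurons and 11.55 against 0 at 7 dpi in the authors' deposited tables. At the 7 dpi peaks of Asz1 and Fkbp6 the authors' deposited table for primary neurons listed regions with 17.39 against 1.04 and 30.91 against 5.18. All 4 promoters thus had a peak in 1 library and a region listed above MEF in the other. They are examples and not typical: only 48 of the 437 and 12 of the 141 promoter peaks of 1 library met such a region. By contrast, at the Tex12 peak of primary neurons a region was listed as lower at 7 dpi, with 0 against 12.99 in MEF. At the 7 dpi peak of Kcnq1ot1 one was lower in primary neurons, with 0 against 37.26. For 7 dpi itself, that peak met a region listed as higher, with 15.01 against 0 in MEF. It also met one listed as lower at 7 dpi, with 0 against 18.19, so Kcnq1ot1 is not read as a difference between the 2 libraries. At Fkbp6 no region was listed as higher at 7 dpi, the library with the peak.

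Most peaks of 1 library had no peak of the other nearby. Such distances depend on how many peaks the other list holds, here 6636 in primary neurons and 14091 at 7 dpi. The 2 medians are therefore not compared, and no separation of the sets is read from them. From a 7 dpi only peak the nearest primary neuron peak was a median of 133 kb away (quartiles 50.8 and 278 kb), and from a primary neuron only peak the nearest 7 dpi peak 58.9 kb away (23.4 and 125 kb). Within 1 kb, 1.14% and 2.24% had a neighbour. Shares on chromosome X were 5.90% of shared peaks at 7 dpi (4.63% to 7.39%), 3.66% of 7 dpi only peaks (3.34% to 3.996%) and 4.26% of primary neuron only peaks (3.74% to 4.83%). Chromosome Y held 17, 37 and 4 peaks of these sets. The labels used here give no sex. Mitochondrial DNA had 6 peaks in primary neurons and none at 7 dpi.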

How the data were processed

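MeDIP-seq peak lists of 6 mouse libraries, 1 per group, were used as deposited; groups follow the titles and cell type labels, and 1 input library served all. Per the submitters' processing notes, CASAVA, Bowtie2 2.1.0 and the mm10 build were used. The peak caller, its settings and the library depths were not given in the sources used here. The authors deposited for each peak a position, a count of tags at the summit, a fold enrichment (ratio) and the −log10 of a q-value. These are the authors' scores. They served for describing and ordering peaks; where those of several lists stand side by side, each comes from its own call, and no change between conditions is read from them. The authors' deposited promoter tables hold a scaled signal of reads, log2 fold changes and the p-values and q-values of their own comparisons with MEF; those of 1, 3 and 5 dpi were not used here.

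Peaks were reduced to 1 entry per position, and overlaps of at least 1 bp were found in Python 3.11.15 (pandas 2.3.3, numpy 2.4.6, scipy 1.17.1) and checked with bedtools 2.31.1 and on simulated data. Figures were drawn with matplotlib 3.10.9. Named peaks are, by the smaller fold of the pair, the 12 strongest shared promoter pairs and the 5 strongest in each other class; by fold, the 10 strongest promoter peaks and 4 in each other class of each set of 1 library; and any promoter peak of a listed gene. Cxcl1, Rn45s, Zfhx4, Cacna1b and the genes with many peaks were named after their values were seen. Members and lists were chosen with earlier results of these data known. Of 9175 genes assigned to the peaks, 9147 were found in RefSeq (GRCm38.p6), whose 26220 genes with a curated transcript are the background of gene counts. With no genome at hand, promoter windows from RefSeq stand in for sequence around summits and were shown where a peak lay over them. Nothing says whether cells of a group came from several cultures or animals. Overlap rules, thresholds and list lengths were varied.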

Additional observations from a re-analysis of the deposited data

How the results depend on the processing

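No paired analysis was possible because each group has 1 library. Of 209 alternative values 161 stayed within the 95% interval of the reported value, or near it for the count of genes with promoter peaks in both libraries (22 at the same position, 27 at any), and 48 moved beyond it. The shares of shared peaks (7 dpi, then primary neurons) were 7.61% and 16.2% with a reciprocal overlap of 50%, 9.47% and 19.7% when peaks within 1 kb counted, and 16.1% and 34.6% when both peaks needed a fold of at least 10. With equal numbers of peaks both were 15.8%, shared peaks at 7 dpi had a median of 607 bp and 44 tags, and 7 dpi only peaks held 2.97% promoters and 36 tags. By class (promoter, gene body, intergenic), 10.8%, 12.9% and 17.1% of the 7 dpi peaks and 12.1%, 14% and 16.5% of the primary neuron peaks were then shared. Leaving out the positions that the authors gave 2 classes, 2 at 7 dpi and none in primary neurons, could hardly move its 12 values, and all stayed. A −log10 q of at least 5 removed no peak, so its 38 values, counted among the 161, were the same by construction. A limit of 20, chosen after seeing the data and applied to all libraries, left 2643 and 1732 peaks, of which 17.5% and 26.7% were shared, or by class 14.7%, 12.9% and 19.3% and 21.4%, 22.5% and 28.1%. Shared peaks then had medians of 683 bp and 57 tags at 7 dpi and 648 bp and 58 tags in primary neurons; 59.0% and 58.9% overlapped 1 dpi peaks, and 86.2% and 86.1% 5 dpi peaks. The 7 dpi only peaks were 2.66% promoter, 27.9% gene body and 69.4% intergenic, with medians of 528 bp and 43 tags, and 1.47%, 7.71%, 4.68% and 19.4% overlapped MEF, 1, 3 and 5 dpi. For primary neuron only peaks the medians were 550 bp and 48 tags, and the overlaps 2.68%, 12.8%, 9.69% and 27.0%. Fewer and stronger peaks entered these values by construction. Leaving out positions over 1000 tags, and the shares by class, were also chosen after seeing the data. No replicate could be left out. Depth limits each list to an unknown degree.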

Other observations

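Some positions had a peak in every library but 1 of the neuronal ones. Of 217 MEF peaks that overlapped a peak at 1, 3 and 5 dpi and in primary neurons, 28 had none at 7 dpi (12.9%, 8.75% to 18.1%). Of 209 that overlapped a peak at 1, 3, 5 and 7 dpi, 20 had none in primary neurons (9.57%, 5.94% to 14.4%). A peak of the missing library lay within 1 kb of 2 of the 28 and 6 of the 20 positions. One of the 6, at Erdr1, lay 93 bp from it, under a 7 dpi peak that is itself shared with primary neurons. Besides Myom2, positions without a 7 dpi peak included one assigned to Tubb2b, a neuronal tubulin gene (7.39-fold in MEF, 12.3-fold in primary neurons), and one to Axin2, a target of Wnt signalling (4.29-fold in MEF, 17.3-fold at 1 dpi, 8.004-fold in primary neurons). Positions without a primary neuron peak included one assigned to Ube3a, an imprinted gene of neurons (7.58-fold in MEF, 6.98-fold at 7 dpi), where the nearest primary neuron peak was 6415 bp away, and one in the gene body of Git2 (6.65-fold in MEF, 10.2-fold at 7 dpi). These examples were chosen after their values were seen.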
